A study of Rattus norvegicus with 9 samples.

Results

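Genes of the brain endothelium and of its barrier were followed in the cortex of 9 irradiated rats. The set was defined by gene name as Flt1, Tek, Tie1, Slc2a1, Cldn5, Pecam1, Abcg2 and Slco1a5, and every array probe that the platform annotation assigns to one of these symbols was taken. Of the 8 genes, 7 had a named probe, among 10412 genes with one, and Tie1 had 2 probes, which gave 8 probes in all. Pecam1, an adhesion molecule between endothelial cells, had no named probe and was not analysed here.

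All animals were Sprague-Dawley rats, an outbred laboratory strain, exposed in the womb to 145 cGy from a caesium-137 source on gestation day 17 and examined at 60 days of age in a series on cortical dysplasia, a disordered build of the cortex. The labels form 4 males and 5 females, and each title carries a running number whose meaning is not given, the first shared by male 1, male 2 and female 1, the second by male 3, male 4, female 2 and female 3, and the third by female 4 and female 5. RNA of the cortex, separated from the hippocampus, was hybridised to 1 Illumina bead array per animal. Unirradiated animals were not analysed here, so every value describes irradiated cortex and none measures an effect of radiation.

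The endothelial cells of brain capillaries form the blood-brain barrier. Tight junctions close the gaps between them, uptake carriers bring in glucose and other solutes, and efflux pumps return drugs and metabolites to the blood. Receptors for vascular growth factors and angiopoietins keep the vessels alive and quiescent. In bulk tissue, fewer endothelial cells and less RNA per cell cannot be told apart.

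A probe was called detected on an array where its intensity exceeded that array's background bound, the 99th percentile of the probes missing from the authors' value table, which lay between 46.6 and 54.1. Of the 8 probes, 5 were detected in all 9 animals, namely those for Cldn5, Abcg2 and Slco1a5 and both for Tie1. Tek was detected in 8 animals, Flt1 in 6 and Slc2a1 in 1. The 7 probes detected in at least 4 animals, for 6 genes, were tested with the rest of the array, 12370 probes in total. As for the tissue, all 9 of 14 listed genes of cortical neurons that had a named probe were detected in every animal. A principal component analysis of the tested probes placed 3 arrays apart on its first axis (33.5% of the variance), namely those of male 2, female 1 and female 3, which scored 16.1 to 19.0 where the remaining 6 scored -13.1 to -4.5. Median raw intensity ranged from 47.9 to 57.2 between arrays, and between 11857 and 12392 probes were detected on each.

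The promoters of 3 members are shown because Slco1a5 and Abcg2 varied most between the animals among the tested members and because Flt1 carries both motifs searched. Each is the 250 bases before the start that RefSeq's assembly GRCr8 lists, in lower case, with capitals for every match, on either strand, to GGAAGT, the core of sites for ETS factors such as the endothelial regulator ERG, or TGACGTCA, the cyclic AMP response element. The second motif was chosen after the sequences had been read. The assembly comes from another strain than the animals.
Flt1, chr12:12333180-12333429, plus strand: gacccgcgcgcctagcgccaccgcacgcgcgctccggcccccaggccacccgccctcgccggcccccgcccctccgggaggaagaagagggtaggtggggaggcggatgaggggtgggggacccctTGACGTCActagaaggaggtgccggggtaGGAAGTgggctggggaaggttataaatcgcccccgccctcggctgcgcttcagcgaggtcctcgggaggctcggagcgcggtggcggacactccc
Abcg2, chr4:89075224-89075473, plus strand: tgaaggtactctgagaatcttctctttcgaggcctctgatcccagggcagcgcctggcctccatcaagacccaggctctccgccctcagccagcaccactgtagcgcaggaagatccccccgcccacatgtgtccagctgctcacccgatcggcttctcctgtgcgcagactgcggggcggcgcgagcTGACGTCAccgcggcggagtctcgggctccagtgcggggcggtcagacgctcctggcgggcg
Slco1a5, chr4:176963813-176964062, minus strand: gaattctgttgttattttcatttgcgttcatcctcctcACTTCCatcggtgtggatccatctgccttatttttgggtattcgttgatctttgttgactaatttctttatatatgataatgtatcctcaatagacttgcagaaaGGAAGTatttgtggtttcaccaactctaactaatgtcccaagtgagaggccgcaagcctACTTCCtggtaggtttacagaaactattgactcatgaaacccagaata
GGAAGT matched 3 times in the Slco1a5 window and once in those of Flt1 and Tie1, while those of Cldn5, Abcg2 and Slc2a1 had 0 matches. Of 33469 promoter windows of this length, 19.2% held a match. TGACGTCA, found in 1.59% of them, matched in the Flt1 and Abcg2 windows, beginning 124 and 62 bases before the listed start. No match of one motif overlaps one of the other. For Abcg2 the listed start lies 69418 bases inside the gene's span and for Slco1a5 it lies 21777 bases inside, so other transcripts of these genes begin elsewhere.

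Cldn5 encodes claudin-5, the claudin that seals the tight junctions of brain endothelium. Its raw intensity was 1240, 1037, 1008 and 872 in males 1 to 4 and 1280, 1040, 1033, 942 and 1003 in females 1 to 5, far above the background bound in every animal. After normalisation the log2 levels lay between 9.81 in female 4 and 10.24 in female 3, a 1.34-fold range. The 4 males lay within the range of the females, and female 2 and female 3 stood above every male. Males averaged 10.00 ± 0.12 (SD, n = 4), and females averaged 10.02 ± 0.16 (SD, n = 5). Female over male was 1.01-fold with a 95% interval from 0.866 to 1.18.

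Flt1 is the receptor VEGFR-1, which binds vascular endothelial growth factor A tightly and limits its signalling through other receptors. Its probe was dim. Raw intensities were 50.1, 57.3, 49.6 and 48.2 in males 1 to 4 and 65.3, 40.8, 44.4, 48.0 and 50.2 in females 1 to 5, and it was detected in 3 of 4 males and 3 of 5 females. Both the highest and the lowest animals were females. On the normalised log2 scale the 4 males averaged 5.15 ± 0.12 (SD) and the 5 females 5.05 ± 0.24 (SD). The male minus female difference of 0.10 ± 0.12 (SE) was within the spread of the animals, and it was 0.02 without female 2 and 0.18 without female 1.

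Tek, or TIE2, is the receptor of the angiopoietins, and Tie1 is its relative and partner on the endothelial surface. Raw intensities of Tek were 57.5, 49.8, 59.5 and 52.9 in males 1 to 4 and 62.2, 51.8, 54.7, 52.7 and 56.2 in females 1 to 5. All of these were close to the bound, and male 2 fell below it. On the normalised log2 scale the 5 females lay at 5.32 ± 0.04 (SD) and the 4 males at 5.28 ± 0.23 (SD), with both the lowest animal, male 2 at 4.98, and the highest, male 3 at 5.52, among the males. The difference was -0.04 ± 0.11 (SE), and without male 2 it turned to 0.06.

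The brighter Tie1 probe, ILMN_1357525, read 6.09, 6.24, 6.10 and 5.91 in males 1 to 4 and 5.84, 5.88, 5.94, 5.98 and 5.95 in females 1 to 5 on the normalised log2 scale. Of the 4 males, 3 stood above every female, and male 4 lay among them. The other probe, ILMN_2040854, read 5.73, 5.52, 5.66 and 5.55 in the males and 5.67, 5.65, 5.47, 5.67 and 5.43 in the females, with no such order. The male minus female differences were 0.16 ± 0.09 and 0.04 ± 0.09 (SE), or 0.11 to 0.22 and 0.00 to 0.07 with 1 animal left out. Across the 9 animals no relation between these 2 probes of one gene was found, at Pearson's r of -0.01 (exact permutation p = 0.979) and Spearman's rho of -0.03 (exact permutation p = 0.948). Without male 2 and male 3, the animals farthest from the median of the brighter probe, r was 0.21 (exact permutation p = 0.668), and within the 6 arrays on one side of the first principal component it was 0.49. Their within-sex SDs of 0.10 and 0.11 were small, with 90.6% and 85.2% of all tested probes varying more.

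Slc2a1 encodes GLUT1, the glucose carrier of brain capillaries, where it is known to be abundant. Its probe, ILMN_1355214, read 49.4, 42.3, 38.9 and 35.5 in males 1 to 4 and 43.8, 44.2, 37.4, 49.1 and 44.2 in females 1 to 5. Only female 4 exceeded the bound of its array. The probe was therefore not tested, and these values give no level of GLUT1 in either sex.

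Abcg2 is an efflux pump, also called BCRP, on the blood side of brain capillaries. Its raw intensity was 156, 150, 167 and 120 in males 1 to 4 and 262, 220, 149, 196 and 244 in females 1 to 5. On the normalised log2 scale the males read 6.97, 7.11, 7.33 and 6.85 and the females 7.64, 7.81, 7.27, 7.47 and 7.78. Of the 5 females, 4 lay above every male, and female 3 lay below male 3, so the groups overlapped. The males averaged 7.07 ± 0.20 (SD, n = 4) and the females 7.59 ± 0.23 (SD, n = 5), a 1.44-fold higher level in females with a 95% interval from 1.18 to 1.76. Abcg2 was put in the set with this difference known. The interval allows neither for that choice nor for the number of probes tested. In the authors' own log2 values the males lay from 6.99 to 7.42 and the females from 7.36 to 7.86.

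**Figure D1:**
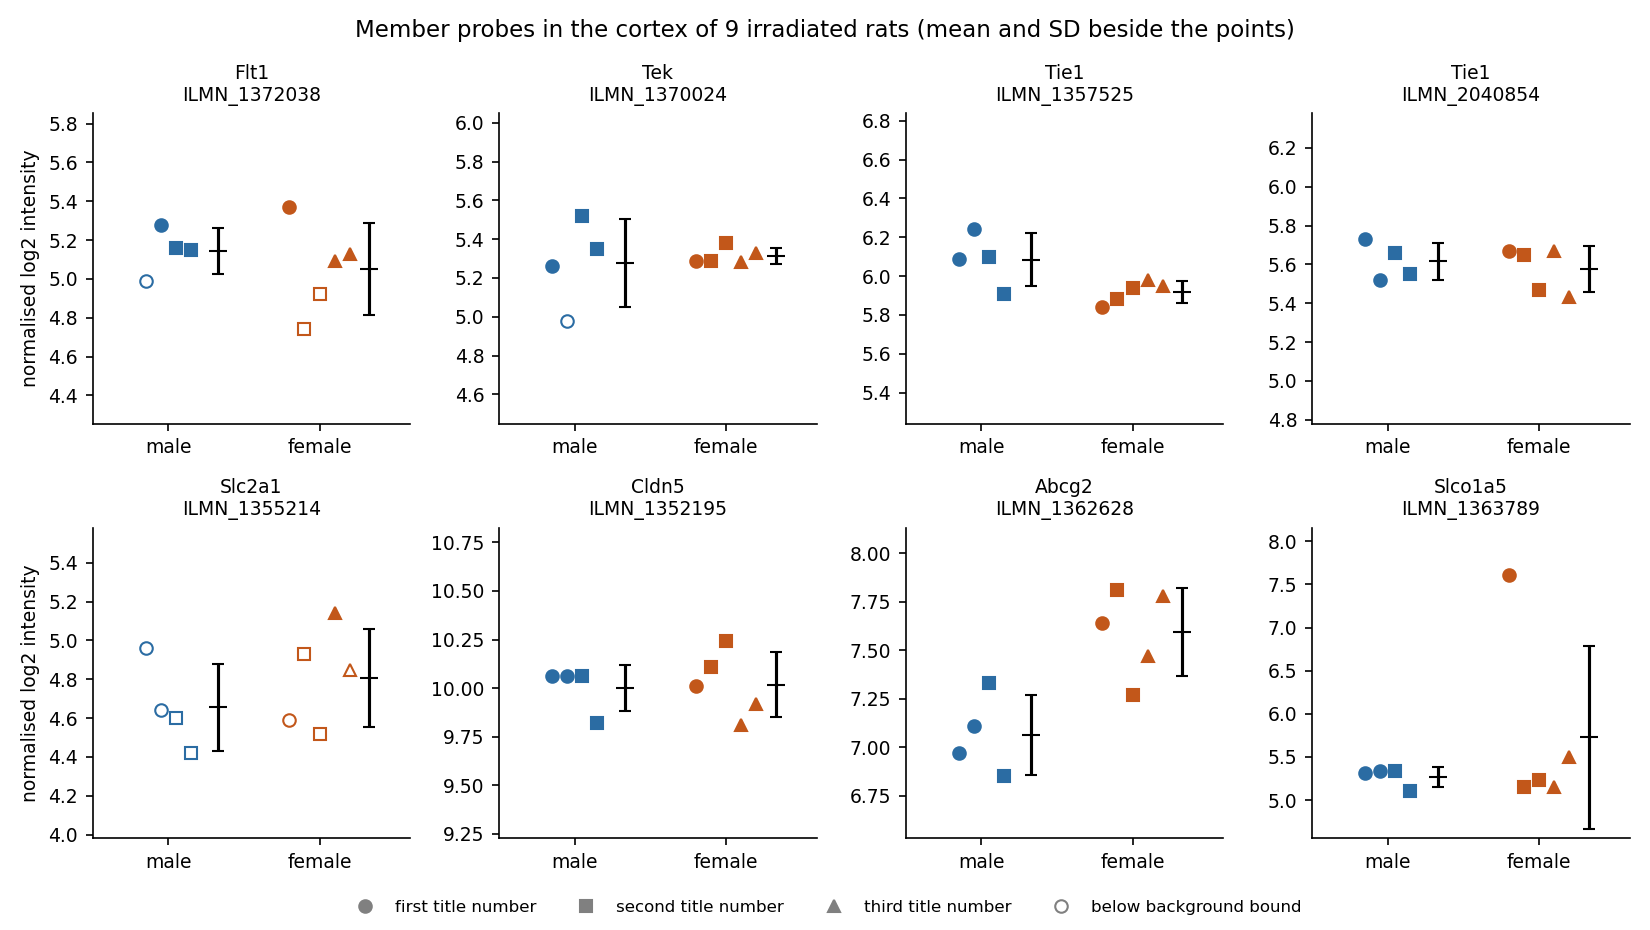
Normalised log2 intensity (vertical axis) of the 8 probes in 4 males (blue) and 5 females (orange), 1 point per animal, with the shape giving the title number, open points for intensities below the background bound, and the mean and SD at the side. All axes have the same span except that of Slco1a5, which is wider. Abcg2 lies higher in 4 of 5 females than in any male, and Slco1a5 is near 5.3 in all animals but female 1, at 7.61.

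Slco1a5 is a carrier of organic anions, including bile acids and thyroid hormones, known in the rat from the choroid plexus as well as from brain vessels. Its raw intensity was 59.1, 58.6, 54.0 and 47.1 in males 1 to 4, 255 in female 1, and 48.6, 51.2, 49.3 and 61.5 in females 2 to 5. The other 8 animals thus stood just above the bound, and female 1 stood apart. Its normalised log2 level of 7.61 was 5.04-fold the median of the other 8 animals, 5.27, and 4.30-fold the highest of them, female 5 at 5.50. Within the sexes the SD of this probe was 0.81, with 0.194% of tested probes varying more. Without female 1 the SD was 0.14, with 61.1% varying more.

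Most listed genes of the choroid plexus, the tissue that lines the ventricles and makes cerebrospinal fluid, were highest in the same animal as Slco1a5. Ttr, the thyroid hormone carrier that this tissue secretes, read 71.6, 95.6, 203 and 81.2 in males 1 to 4, 4817 in female 1, and 67.7, 85.3, 190 and 759 in females 2 to 5. It was named after its values were seen. Sostdc1, a BMP antagonist, reached 310 in female 1 and at most 79.2 in any other animal. Of 12 choroid plexus genes with a named probe, 9 were highest in female 1 and 11 were detected there. The array of female 1 also had the highest median raw intensity, 57.2, and the most probes detected, 12392. The share of all probes that were highest in female 1 was not worked out. Folr1, Kl, Clic6 and Otx2 were detected in female 1 and in no other animal, and Cldn2 was not detected in any. These 5 were also named after their values were seen, as were Kcnj13, Slc4a5, Prlr and Enpp2. Kcnj13, Slc4a5 and Prlr were not highest in female 1, at 1.03-fold, 1.03-fold and 1.02-fold the median of the other animals. The summed normalised intensity of the 6 tested genes was 7898 in female 1, from 1455 to 3262 in the other females and from 1837 to 2771 in the males. Outside female 1 most of this sum came from Enpp2, so there it mainly follows that gene. Enpp2 read 11.73 on the normalised log2 scale in female 1 and from 10.15, in female 4, to 11.25, in male 3, in the other animals. The mean deviation of the tested oligodendrocyte genes was also lowest in female 4, at -0.72. It was 0.25 in male 3 and 0.03 in female 1. How far Enpp2 reads choroid plexus or oligodendrocytes here was not tested. The part of the choroid plexus signal in the Slco1a5 level was not tested either.

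**Figure D2:**
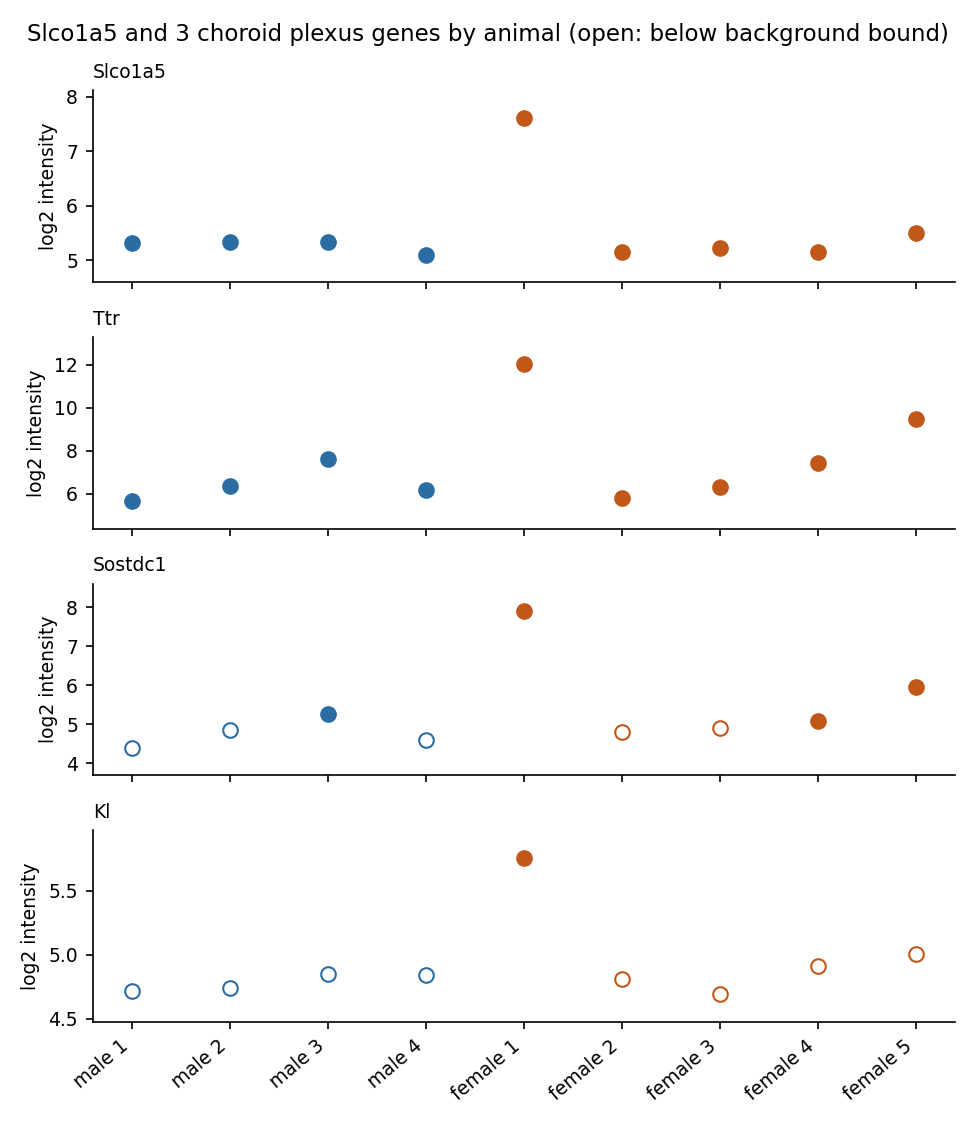
Normalised log2 intensity (vertical axes) of Slco1a5 and of the choroid plexus genes Ttr, Sostdc1 and Kl in each of the 9 animals (horizontal axis), males in blue and females in orange, with open points below the background bound. Female 1 is the highest animal in all 4 panels, and female 5, at 5.50 for Slco1a5 and 9.50 for Ttr, is the next.

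Over the other 8 animals the relation of Slco1a5 to these genes was looked at in 2 ways, both chosen after seeing the data. With Ttr, r was 0.64 (exact permutation p = 0.0769, adjusted 0.0769) and rho 0.55 (exact permutation p = 0.171, adjusted 0.171). Without female 5 and male 3, the animals farthest from the median of Ttr, r was -0.31 (exact permutation p = 0.626), so this relation rests on those animals. With the mean deviation of the 6 tested choroid plexus genes, Enpp2 among them, r was 0.66 (exact permutation p = 0.0674, adjusted 0.0769) and rho 0.55 (exact permutation p = 0.171, adjusted 0.171). Without female 5 and male 1 it was 0.62 (exact permutation p = 0.186). Within the 6 arrays on one side of the first principal component, which hold female 5 and male 3, r was 0.71 with Ttr and 0.70 with the mean deviation. Neither relation passed. The other tested member probes stood in female 1 at 0.917-fold the median of the other animals, for the brighter Tie1 probe, to 1.27-fold, for Abcg2.

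The sexes are the only groups that the labels give, and they were compared with limma's moderated test across all 12370 probes. No member was called, as 0 of 7 member probes passed a Benjamini-Hochberg adjusted p of 0.05, against 0.00% of all probes. Of the 7 differences, 4 were toward females and 3 toward males, and in 0 of 7 did the sexes not overlap, against 0.792% of all probes. At an unadjusted p under 0.05 stood 1 of 7 member probes, that for Abcg2, toward females, against 1.94% of all probes, 1.17% toward females and 0.768% toward males. Its difference was -0.53 ± 0.13 (male minus female, SE), with an unadjusted p of 0.00156 in limma, which ranked 7 among the 12370 probes, and an adjusted p of 1.00. The members were chosen with this value known.

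**Figure D3:**
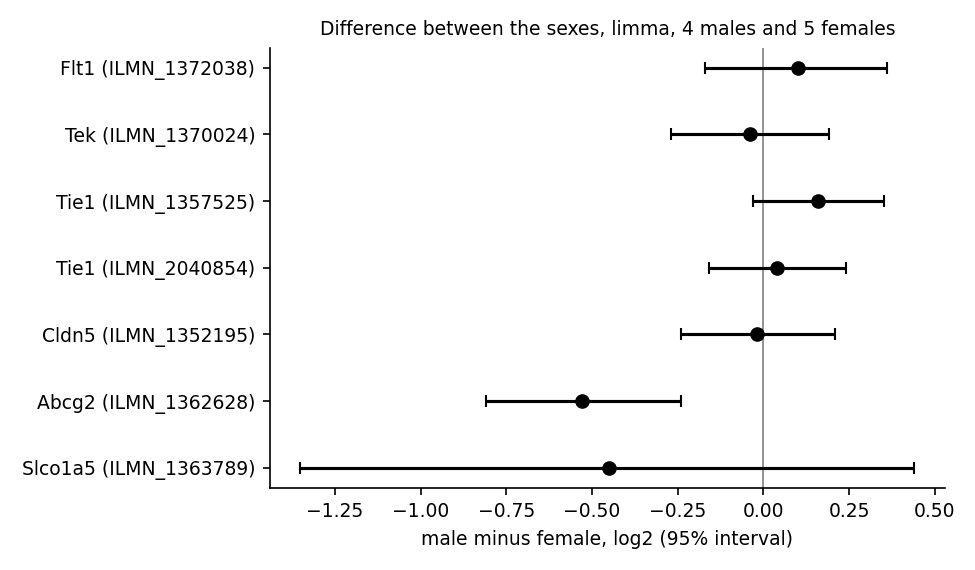
Male minus female difference in log2 intensity (horizontal axis) with its 95% interval for the 7 tested member probes, from limma over 4 males and 5 females. The interval of Abcg2, from -0.81 to -0.24, lies below 0, the other 6 include 0, and that of Slco1a5 is the widest, from -1.35 to 0.44. The intervals are not adjusted for the number of probes, and Abcg2 was put in the set with its difference known.

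The Abcg2 difference had the same direction within both title numbers that hold both sexes, at -0.60 in the first and -0.45 in the second. In the first, female 1 is the only female, so that value rests on a single animal on the female side. Leaving out any 1 animal gave -0.62 to -0.46, and without male 2, female 1 and female 3, the arrays apart on the first principal component, it was -0.64 ± 0.15 (SE). Without female 1, the animal with the choroid plexus signal, it was -0.52 ± 0.14 (SE). In no case did it pass, at a lowest adjusted p of 0.847 in limma with the title number as a fixed block, over all alternatives run. All these checks reuse the values that were known when Abcg2 was put in the set. They describe how far the difference rests on single animals and do not test it anew.

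**Figure D4:**
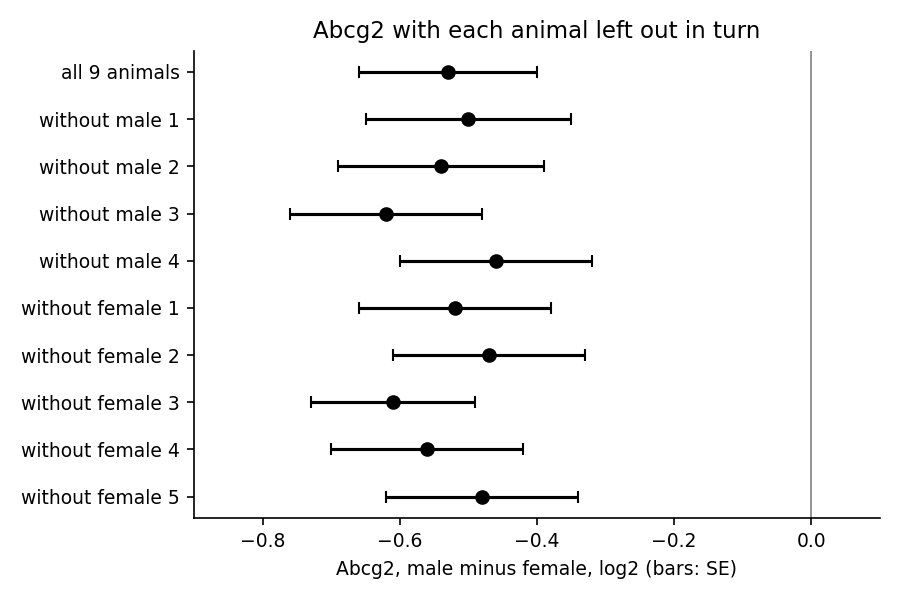
Male minus female difference of Abcg2 in log2 intensity (horizontal axis, bars give the SE) with all 9 animals and with each animal left out. All 10 estimates lie between -0.62 and -0.46. Abcg2 was put in the set with this difference known, so the estimates are no independent test of it.

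For Slco1a5 the sex difference was decided by 1 animal. Over all animals it was -0.45 ± 0.41 (male minus female, SE), the 4 males averaging 5.27 ± 0.11 (SD) and the 5 females 5.73 ± 1.06 (SD). Without female 1 the females stood at 5.26 ± 0.17 (SD, n = 4) and the difference was 0.02 ± 0.11 (SE). Within the first title number, which holds female 1 as its only female, the difference was -2.28, and within the second it was 0.03.

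For the other tested probes the 95% intervals describe the difference in the probe readings. Flt1 and Tek read close to the background bound, so their intervals do not limit how far the transcripts themselves may differ. Female over male lay between 0.779 and 1.12 for Flt1, between 0.875 and 1.20 for Tek, between 0.782 and 1.02 for the brighter Tie1 probe and between 0.848 and 1.12 for the other. Each of these spans 1, and none of them shows that the sexes are alike. The sign within the first title number was opposite to that over all animals for Flt1, at -0.24, for the dimmer Tie1 probe, at -0.04, and for Cldn5, at 0.05, and within the second for Tek, at 0.10. The first holds female 1 as its only female.

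The 3 title numbers, which may or may not mark a litter or a batch, were compared by a moderated F test in limma that also fitted sex. Here too 0 of 7 member probes were called, against 0.00% of all probes, and 1 of 7 had an unadjusted p under 0.05, against 9.23% of all probes. This was Slco1a5 (F = 5.29, unadjusted p = 0.0248 and adjusted p = 0.520 in limma), and without female 1 its unadjusted p was 0.589. Abcg2 averaged 7.24, 7.32 and 7.62 in the animals of the first, the second and the third number, the last of which holds females only, and had an adjusted p of 0.988 in limma. Cldn5 averaged 10.05, 10.06 and 9.87 (adjusted p = 0.659 in limma).

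To see whether the members varied together between animals, the 15 pairs of the 6 tested genes were compared across all 9. Pearson's r ran from -0.48 to 0.60 with a median of 0.00, and 8 of 15 were above 0. No pair passed, with a smallest adjusted p of 0.900 for r and 1.00 for rho in the exact permutation test over 362880 pairings, and 0 of 15 had an unadjusted p under 0.05 by either measure. The highest r, 0.60 between Flt1 and Slco1a5 (exact permutation p = 0.128, with rho 0.55 and p = 0.133), fell to 0.19 without female 1 and female 2 (exact permutation p = 0.697). The lowest, -0.48 between Tie1 and Abcg2 (exact permutation p = 0.185, with rho -0.40 and p = 0.291), was -0.49 without male 2 and male 3 (exact permutation p = 0.267) and -0.76 without male 4. With median scaling it was -0.17, and after each sex's mean was subtracted it turned to 0.17. Within the 6 arrays on one side of the first principal component the values of these 2 pairs were 0.30 and -0.38.

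**Figure D5:**
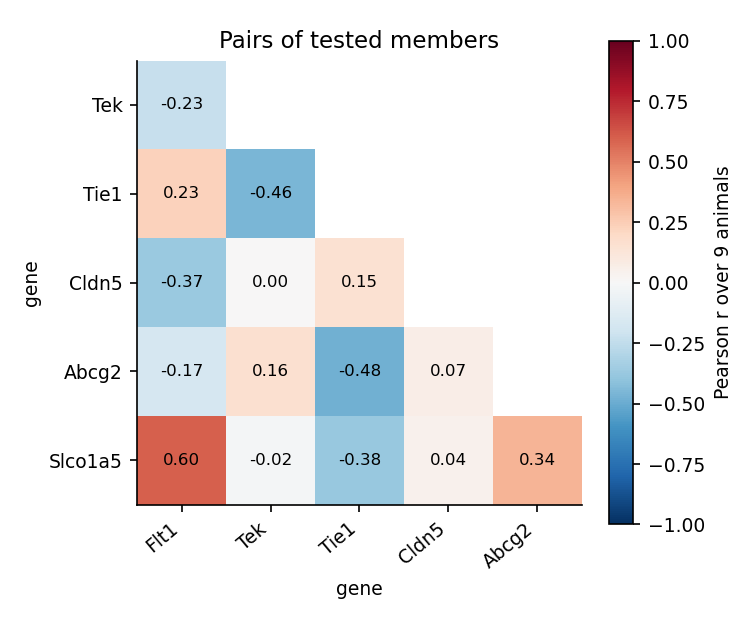
Pearson's r across 9 animals for the 15 pairs of tested member genes, from blue at -1 to red at 1. Values run from -0.48 for Tie1 and Abcg2 to 0.60 for Flt1 and Slco1a5, with both signs in about equal number.

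The other endothelial genes were set beside the members. The general endothelial list had 32 tested genes, of which 28 were detected in every animal, and its mean deviation was set against each member. Pearson's r was 0.47 for Slco1a5, 0.41 for Cldn5, 0.30 for Flt1, -0.01 for Tie1, -0.26 for Tek and -0.33 for Abcg2, with adjusted p from 0.597 to 0.985 over these 6 relations in the exact permutation test. Spearman's rho ran from -0.48 for Abcg2 to 0.43 for Flt1, at adjusted p from 0.75 to 0.948 in the same test. Without female 1 and female 5, the animals farthest from the median of the list, r ran from -0.39 for Abcg2 to 0.49 for Cldn5. Within the 6 arrays on one side of the first principal component it turned to -0.77 for Slco1a5 and -0.12 for Flt1, and stood at 0.03 for Cldn5, 0.17 for Tie1, -0.01 for Tek and -0.70 for Abcg2. The summed normalised intensity of the list, in which the brightest genes weigh most, ran from 5637 to 5802 in males and from 5464 to 6243 in females.

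None of the surrounding pathways had a member called between the sexes in either direction, against 0.00% of all 12370 probes tested with limma. With no probe called on the whole array, this says nothing particular about these pathways. The VEGF system, with 6 tested genes of 8 with a named probe, had a median difference of 0.04 (male minus female), beside 0.00 over all tested probes. Its ligands Vegfa, Vegfb, Vegfc and Vegfd differed by -0.02 ± 0.11, 0.07 ± 0.11, 0.02 ± 0.14 and -0.05 ± 0.12 (SE), and the co-receptor Nrp1 by 0.12 ± 0.11. The ligand Pgf and the co-receptor Nrp2 were detected in 2 and 1 animals and were not tested. The angiopoietin system, with 4 tested genes of 4, had a median of -0.05. Angpt1, which activates Tek, differed by -0.08 ± 0.13 and Angpt2, which competes with it, by -0.07 ± 0.13.

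The junction list had 12 tested genes of 16 and a median of 0.02. Lsr, a protein of junctions between 3 cells, differed by 0.16 ± 0.12 and Cldn12, a further claudin, by 0.12 ± 0.11 (SE). The efflux list, with 4 tested genes of 5, had a median of -0.05, and next to Abcg2 the drug pump Abcb1b, detected in 4 of 9 animals, differed by -0.08 ± 0.15. The solute carrier list had 18 tested genes of 20 and a median of 0.01, with the transferrin receptor Tfrc at -0.24 ± 0.20. Of the 4 tested efflux genes only Abcg2 had an unadjusted p under 0.05 in limma, against 1.94% of all probes. Abcb1b and a further gene of the list read close to the bound, and Abcg2 was chosen with its value known. This does not show that Abcg2 differs from the other pumps.

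The list of Norrin and Wnt7 signalling, which builds the barrier in development, had 11 tested genes of 12 and a median of 0.00. The endothelial transcription factors Sox17 and Sox18 in it were 0.26 ± 0.10 and 0.20 ± 0.10 higher in males (SE), at unadjusted p of 0.0223 and 0.0737 in limma. In the general endothelial list, with a median of -0.02, Plvap, a protein of the diaphragms of leaky capillaries, was 0.27 ± 0.10 higher in males and Cav1, the coat protein of caveolae, 0.28 ± 0.13 (SE). Their unadjusted p were 0.0140 and 0.0519 in limma, and the adjusted p of all 4 genes was 1.00. These 4 were the genes of smallest p in lists that went both ways, with 15 of 32 general endothelial genes toward males and 17 toward females, and 6 and 5 of the 11 of Norrin and Wnt7 signalling.

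Genes of neighbouring cell types were compared in the same way. Pericytes and smooth muscle, which wrap the vessels, had 8 tested genes at a median of -0.01, with Vtn at 0.14 ± 0.12 and Anpep at -0.11 ± 0.10 (SE). Astrocyte endfeet, which cover them, had 10 at a median of -0.06, with Mlc1 at -0.13 ± 0.10 and Slc4a4 at -0.17 ± 0.14. Blood cells had 7 at a median of 0.13, with Hbb-b1 at 0.39 ± 0.20 and Hbb at 0.40 ± 0.24, and their summed intensity ran from 6246 to 10598 in males and from 4356 to 7740 in females. Medians were 0.19 for 13 genes of meninges and fibroblasts and for 7 of oligodendrocytes, -0.01 for 10 of microglia, 0.03 for 9 of cortical neurons and -0.20 for 6 of the choroid plexus. In the last list the water channel Aqp1 was not above background in any male. It reached the 4 detected animals needed for a test through females alone. Normalised log2 means were 4.91 ± 0.13 (SD, n = 4) in males and 5.23 ± 0.26 (SD, n = 5) in females. The unadjusted p was 0.0288 and the adjusted p 1.00 in limma. Female 1, the animal with the choroid plexus signal, had a raw intensity of 76.9. Females 3, 4 and 5 stood just above their bounds of 47.2, 47.2 and 48.5, with raw intensities of 51.2, 49.5 and 49.4. Apart from female 1, all animals thus lay near or below the bound, which limits what this p-value can show. The part of these tissues in the Abcg2 difference was not tested.

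For each member, the genes most like it over the 9 arrays were taken from 7380 named probes detected in every animal, as a description with no test. Picked as the highest of so many over few arrays, these r are high partly through that choice. Leaving out 1 array afterwards does not test them. Cldn5 was closest to the calcium-activated protease Capn2 (r = 0.96) and the transcriptional repressor Hbp1 (0.90). Abcg2 was closest to Tmcc2, a protein of the endoplasmic reticulum, at 0.92, and the brain glycogen phosphorylase Pygb, at 0.89. Tmcc2 and Pygb themselves differed between the sexes by -0.26 ± 0.10 and -0.13 ± 0.08 (male minus female, SE). Flt1, detected in only 6 animals, was closest to Zfp422 (0.96) and Ajuba (0.89). These correlations hardly moved when the array farthest from the member's median was left out, at 0.95 and 0.85 for Cldn5, 0.91 and 0.90 for Abcg2, and 0.93 and 0.94 for Flt1.

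The likeness of Slco1a5, Tek and the brighter Tie1 probe moved more when that array was left out. Slco1a5 was closest to Smc6, a subunit of a DNA repair complex, at 0.98, and the reelin and lipoprotein receptor Vldlr, at 0.96, and without female 1 these fell to 0.78 and 0.76. Both genes were highest in female 1, Vldlr at 7.73 against at most 7.20 in the others. Tek was closest to Ing4 (0.89) and Yju2 (0.86), or 0.61 and 0.69 without male 2. The Tie1 probes had different neighbours, Mbd6 and Baz2a (0.90 each, 0.78 each without male 2) for the brighter and Hist1h2bd (0.95) and Mras (0.90) for the dimmer, which stood at 0.94 and 0.84 without female 5.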

How the data were processed

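Per the labels, cortex RNA of each animal was copied into biotin-labelled cRNA and hybridised to an Illumina bead array. The authors deposited 1 linear intensity per probe and array for 22517 probes, not normalised between arrays, and a table of log2 values for 15912 of them. Per the values, the deposited log2 table kept each array's rank order. It gave every array the same median of 6.13 and the same maximum of 13.5, as quantile normalisation would. Its sex differences for the tested member probes equalled, as rounded, those from quantile normalisation without background correction. Those alternatives are therefore hardly distinct. The sources used here do not name the scanner software or its background step.

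Intensities were corrected with limma 3.58.1 in R 4.3.3 (normexp, offset 16), quantile normalised and put on the log2 scale. Without detection p-values, background was set from the 6605 probes outside the value table. The two-sided tests came from limma's lmFit and eBayes, were adjusted by Benjamini-Hochberg over 12370 probes and were tested on simulated data. Where a gene had several probes, the one with the highest mean stood for it in lists and pairs. Names came from the platform annotation, which gave 1 symbol to 10687 probes and none to 5225 of the value table. The 7 measured members matched RefSeq by gene identifier, and 6 of the 8 had a promoter entry. The labels name separate animals, but whether any share a litter is not given. The main tests treat the animals as independent, so if some share a litter, the p-values may be too small.

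Genes outside the set could be named by rule: up to 2 of a list, those with the smallest p between the sexes, all measured genes of the VEGF and angiopoietin systems, and the 2 most like each member. Ttr, Folr1, Kl, Clic6, Otx2, Cldn2, Kcnj13, Slc4a5, Prlr and Enpp2 fall outside it. The members and lists were chosen with earlier results of these data known. The number of arrays limits the precision. Alternatives were no background correction, an offset of 50, median scaling, the authors' log2 values, other filters, title number as a block, eBayes with trend and robust settings, array weights, a 95th percentile bound, each animal left out and, chosen after seeing the data, the 3 arrays apart left out.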

Additional observations from a re-analysis of the deposited data

Results flagged for a closer look

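Within each sex, 14 sets of values, 7 probes by 2 sexes, were examined for an animal far from its nearest neighbour by Dixon's test, which chance alone meets in about 1 of 20 sets, and 3 values met it. Slco1a5 in female 1, at 7.61 against 5.50 in the next female, came with the choroid plexus genes given above. Slco1a5 was also low in male 4, at 5.10 against 5.31 to 5.34 in the other males, where its raw intensity of 47.1 was next to the bound of 46.6. Cldn5 was low in male 4, at 9.82 against 10.06 in each of the other 3 males, while its lowest value of all, 9.81, was in female 4.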

How the results depend on the processing

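No alternative called a member between the sexes, between the title numbers or in a pair. Over all probes, 0 were called between the sexes, or 0 to 2 with 1 animal left out (2 without male 1, 1 without male 4). Between the title numbers 0 were called, or 1 with no filter, 35 with array weights, 2 without the 3 arrays apart, and 0 to 3 with 1 animal left out (3 without female 2 or female 5, 1 without male 4). The causes were not tested. Signs turned mostly for small differences, but also for Slco1a5, at -0.45 over all animals, and for the correlation of Tie1 and Abcg2, at -0.48. Tek, at -0.04, stood at 0.02 with array weights, 0.08 without the 3 arrays apart, 0.10 within the second title number and from -0.12 to 0.06 with 1 animal left out. Cldn5, at -0.02, stood at 0.03 without the 3 arrays apart, 0.05 within the first title number and from -0.07 to 0.04 with 1 animal left out, at or above 0 without male 4, female 2 or female 3. Within the first, Flt1 stood at -0.24 and the dimmer Tie1 probe at -0.04. Slco1a5 stood at 0.03 within the second and from -0.60 to 0.02 with 1 animal left out. The correlation of Tie1 and Abcg2 turned to 0.17 after each sex's mean was subtracted. Abcg2, chosen with its difference known, stayed negative in all, from -0.44 with an offset of 50 to -0.64, and was -0.48 in the authors' log2 values. At a 95th percentile bound Slc2a1 was detected in 2 animals. No animals could be matched one to one, since the labels give no replicate numbers and the title numbers hold the sexes unequally. With the title number as a fixed block, Abcg2 stood at -0.51 and Slco1a5 at -0.89, and Cldn5 at -0.12. Probes near the bound, Flt1, Tek, Slc2a1 and Slco1a5, limit what their values can show.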
